A study of Homo sapiens with 2 samples.

Results

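The receptor tyrosine kinase to ERK pathway switches on genes that hold it in check, and transcription factor genes that carry its output. The members examined here are 10 genes of these kinds in HN6, an established line of human tongue squamous cell carcinoma. The inhibitors are the Sprouty genes SPRY1, SPRY2 and SPRY4, the Sprouty-related genes SPRED1, SPRED2 and SPRED3, and the receptor-like inhibitor IL17RD. The output genes are the PEA3 transcription factor genes ETV1, ETV4 and ETV5. All 10 are called feedback genes below for short, although the PEA3 genes are not inhibitors. They were taken by gene symbol from a deposited table of 25534 genes, and all 10 were found. They were chosen for these roles with their values in these same data known, so that their levels and differences are a description and carry no test.

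RNA sequencing compared 2 libraries of HN6 cells, 1 from control cells whose genotype is given as WT and 1 from cells overexpressing the KRAB-type zinc finger gene ZNF582 from a transfected plasmid. Polybrene is the agent named for the transfection. The plasmid's promoter, clonal origin, the time of harvest and any plasmid given to control cells are not stated. With 1 library per group no difference has a replicate check, and the 95% intervals cover counting error only. The libraries held 14765244 and 17792172 assigned counts for control and ZNF582. ZNF582 itself had 14 counts in control and 277387 in the ZNF582 library, which matches both labels. The 8 squamous and epithelial markers were all listed, with summed levels of 174 FPKM (fragments per kilobase of transcript, scaled to library size) in each library, but these equal sums hold members that differ in both directions. KRT17, a keratin gene of stratified epithelium, was higher by the 2-fold rule used below (642 counts in control and 2780 with ZNF582). The basal keratin gene KRT5 stood at a log2 fold of 0.87 and the cadherin gene CDH1 at -0.54. KRT14, another basal keratin gene, was low at 0.163 FPKM in control and 0.366 FPKM with ZNF582. In such bulk RNA, fewer cells of a kind and less RNA per cell cannot be told apart.

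As background, growth factor receptors signal through the adaptor GRB2 and the exchange factor SOS to RAS, RAF, MEK and ERK. Sprouty proteins act near the receptor and RAS, SPRED proteins bring the RAS-inactivating protein neurofibromin (NF1) to the membrane, and IL17RD, also called SEF, restrains FGF receptor signalling and activated ERK. ETV1, ETV4 and ETV5 carry the signal into transcription. The repressor Capicua (CIC) holds several of these genes off through octamers of the form TGAATGAA or TGAATGGA, and ERK activity relieves that repression. In squamous carcinoma, where EGFR is commonly active, their RNA is widely used as a readout of ERK output.

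In the GRCh38 coordinates of the deposited table, the Sprouty genes are SPRY1 (ENSG00000164056) at chr4:123396795-123403760 on the plus strand, SPRY2 (ENSG00000136158) at chr13:80335976-80340951 on the minus strand and SPRY4 (ENSG00000187678) at chr5:142310427-142326455 on the minus strand. The SPRED genes are SPRED1 (ENSG00000166068) at chr15:38252326-38357249 on the plus strand, SPRED2 (ENSG00000198369) at chr2:65310851-65432637 on the minus strand and SPRED3 (ENSG00000188766) at chr19:38388421-38399587 on the plus strand, and the gene for the receptor-like inhibitor is IL17RD (ENSG00000144730) at chr3:57089982-57170306 on the minus strand. The PEA3 genes are ETV1 (ENSG00000006468) at chr7:13891228-13991425 on the minus strand, ETV4 (ENSG00000175832) at chr17:43527844-43579620 on the minus strand and ETV5 (ENSG00000244405) at chr3:186046308-186110318 on the minus strand.

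Promoter sequence was searched in every member with a window. Stretches are shown for SPRY1, ETV1 and SPRED3, because those genes were the members past the 2-fold rule given below. RefSeq windows of 300 bases (GRCh38.p14, 250 bases before to 50 after a start site) were matched for 8 members, in 19 windows over alternative start sites. ETV4 and ETV5 were not matched. The stretches below are written 5′ to 3′ on the strand of the gene, with motif matches in capitals. For ETV1 the stretch is the 250 bases upstream of the start site at the end of the gene span in the deposited table (chr7:13991426-13991675, minus strand), and its capitals mark a Capicua octamer that begins 125 bases before the start site. No other ETV1 window held a match. For SPRY1 it is the 250 bases upstream of the start site at the start of the gene span (chr4:123396545-123396794, plus strand), in which none of the motifs searched was found. The last pair are 30-base sites, a Capicua octamer in SPRED3 (chr19:38389588-38389617, plus strand) that begins 192 bases before the start site at 38389791, and an ETS factor motif in SPRY1 (chr4:123398308-123398337, plus strand) that begins 67 bases before the start site at 123398386, in bases that the annotation also counts as exonic in SPRY1.
ETV1 promoter: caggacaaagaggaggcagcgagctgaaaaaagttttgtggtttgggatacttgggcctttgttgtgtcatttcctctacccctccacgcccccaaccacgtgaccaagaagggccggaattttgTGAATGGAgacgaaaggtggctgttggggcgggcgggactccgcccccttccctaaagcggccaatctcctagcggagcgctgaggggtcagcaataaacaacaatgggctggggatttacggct
SPRY1 promoter: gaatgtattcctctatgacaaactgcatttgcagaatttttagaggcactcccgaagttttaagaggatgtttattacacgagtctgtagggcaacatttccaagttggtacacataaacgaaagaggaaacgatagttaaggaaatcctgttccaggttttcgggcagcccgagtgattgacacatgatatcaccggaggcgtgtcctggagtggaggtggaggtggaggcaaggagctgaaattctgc
SPRED3 octamer: cttgatttttgTGAATGAAatgctctctgg
SPRY1 ETS motif: gccctccgcagCCGGAAGggggccgcgggg

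On both strands, the octamer TGAATGAA or TGAATGGA was present in 2 of the 19 member windows, 1 each of SPRED3 and ETV1, and in 2.63% of all 35114 windows in the RefSeq table. The ETS motif CCGGAAG was in 1 of the 19 and in 10.3% of all windows. The AP-1 motif TGANTCA was in 2 of the 19, of SPRED2 and SPRED3, and in 7.71% of all windows. The AP-1 sites are not shown. No match overlapped a match of another motif. A match describes letters in the window and is not shown to be a bound site.

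The Sprouty, SPRED and PEA3 genes were mostly lower in the ZNF582 library. After scaling by total counts with TMM factors, 9 of the 10 had a log2 fold (ZNF582 over control) below 0, from -1.82 for SPRY1 to -0.26 for ETV5, and SPRY2 stood apart at 0.12. The median over the 10 was -0.48. SPRY1, ETV1 and SPRED3 were lower by the rule applied to every gene, a fold of 2 or more with a counting interval that excludes no change. The other 7 were neither, and 0 were higher. The whole interval lay below 0 for 9 members. Among the 16669 genes examined, those whose counts summed to 20 or more, 50.2% had a log2 fold below 0, 25.8% had the whole interval below 0, 5.01% were lower by the 2-fold rule and 4.28% higher, and the median log2 fold was -0.003. Because the members were chosen on this contrast, nothing is read from their counts against these shares.

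**Figure D1:**
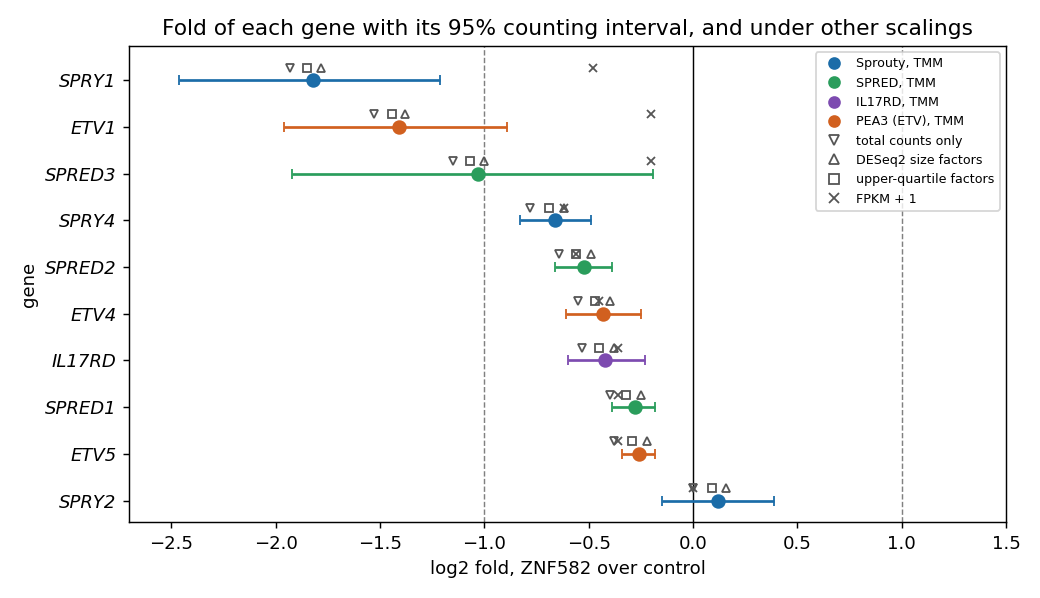
Log2 fold of each feedback gene, ZNF582 over control, with its 95% counting interval (coloured points, TMM scaling) and the value under other scalings (open marks, and crosses for log2 of FPKM plus 1). Dashed lines mark 2-fold; SPRY1, ETV1 and SPRED3 lie beyond the lower one with TMM factors, and SPRY2 alone has its coloured point above 0.

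Sprouty genes encode membrane-associated inhibitors that are induced by receptor signalling and act on the steps from receptor to RAF. SPRY1 had 95 counts in control and 30 with ZNF582, or 0.626 and 0.164 FPKM. It was 3.52-fold lower (2.31 to 5.5), and 1.07% of examined genes had a lower log2 fold. SPRY4 had 689 counts in control and 484 with ZNF582, at 5.19 and 3.03 FPKM, a ratio of 1.58-fold lower (1.41 to 1.78). SPRY2 had 207 and 250 counts, at 2.97 FPKM in each library, and its log2 interval of -0.15 to 0.39 holds no change. SPRY1 was thus past the rule, SPRY4 was not, and SPRY2 had the same FPKM in both libraries. Folds and intervals here and below carry the TMM factors, 1.04 for control and 0.96 for ZNF582. The deposited FPKM carries no such factor, so the FPKM values give a lower ratio of ZNF582 to control than the fold beside them.

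Library scaling cancels when paralogues are compared within a library. Per 100 counts of SPRY2 there were 45.9 of SPRY1 in control and 12 with ZNF582, a ratio of 3.82 between libraries (2.4 to 6.21). Per 100 counts of SPRY2 there were 333 of SPRY4 in control and 194 with ZNF582, a ratio of 1.72 (1.37 to 2.15). SPRY1 against SPRY4 gave a ratio of 2.22 (1.43 to 3.53). These pairs, and those named below for the other families, were chosen after the values were seen. By FPKM, SPRY2 made up 33.8% of the summed Sprouty level in control and 48.2% with ZNF582, while SPRY4 stood at 59.1% and 49.1%, and SPRY1 at 7.13% and 2.66%. On merged exon length the leading Sprouty gene with ZNF582 was SPRY2, at 34.6% in control and 50.3% with ZNF582, while SPRY4 stood at 53.3% and 45.1%, and SPRY1 at 12.2% and 4.63%. The counting intervals of the SPRY2 and SPRY4 levels overlapped in the ZNF582 library.

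SPRED proteins carry an EVH1 domain that binds neurofibromin and a Sprouty-related domain that anchors them at the membrane. SPRED1 had 1454 counts in control and 1327 with ZNF582, at 11.3 and 8.57 FPKM, a ratio of 1.22-fold lower (1.13 to 1.31). SPRED2 had 1049 and 811 counts, at 8.95 and 5.74 FPKM, a ratio of 1.44-fold lower (1.31 to 1.58). SPRED3 was scarce, with 35 counts in control and 19 with ZNF582, at 0.3 and 0.135 FPKM. It was 2.05-fold lower with a wide interval (1.14 to 3.79), just inside the rule, and with DESeq2 size factors it was not past it.

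Within the family, SPRED2 against SPRED1 went from 72.1 per 100 counts in control to 61.1 with ZNF582, a ratio of 1.18 (1.05 to 1.33). SPRED3 against SPRED1 gave a ratio of 1.68 (0.93 to 3.13), whose interval holds 1, so that a larger difference of SPRED3 than of SPRED1 was not detectable at this depth. NF1, the partner that SPRED proteins recruit, had 8415 and 9061 counts and a log2 fold of -0.05. LZTR1, an adaptor for degradation of RAS proteins, stood at -0.18.

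IL17RD, a transmembrane protein of the interleukin-17 receptor family that acts on FGF signalling, had 527 counts in control and 439 with ZNF582. Its level was 2.59 and 1.79 FPKM, a ratio of 1.33-fold lower (1.17 to 1.52). The related receptor genes IL17RA and IL17RC stood at log2 folds of 0.17 and -0.03. IL17RE, at 7 and 14 counts, stood at 0.85 with an interval that holds 0. IL17RB, at 16 and 2 counts, was below the count minimum, with a log2 fold of -3.15 (-6.32 to -1.06). The authors' deposited table called IL17RB down.

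The PEA3 factors are ETS-domain transcription factors that bind GGAA-centred sites and act downstream of FGF and EGF receptors. ETV1 had 103 counts in control and 43 with ZNF582, at 0.249 and 0.0864 FPKM, and was 2.66-fold lower (1.85 to 3.89). ETV4 had 563 and 463 counts, at 5.28 and 3.6 FPKM, a ratio of 1.35-fold lower (1.19 to 1.53). ETV5 had 2407 and 2234 counts, at 20.5 and 15.8 FPKM, a ratio of 1.2-fold lower (1.13 to 1.27). ETV5 was the main PEA3 transcript in both libraries, with 78.7% of the summed PEA3 FPKM in control and 81% with ZNF582, while ETV1 held 0.959% and 0.444%. On merged exon length, explained below, ETV5 held 71.3% and 74.4% and ETV1 held 1.84% and 0.863%.

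Compared within the libraries, ETV1 against ETV5 gave a ratio of 2.22 between control and ZNF582 (1.54 to 3.27). ETV4 against ETV5 gave 1.13 (0.98 to 1.3), an interval that holds 1. ETV4 shares 68 exonic bases (1.89% of its exons) with DHX8 on the other strand. ETV5 shares 164 (2.83%) with DGKG on its own strand. Whether counting used strand is not stated, and reads in the shared stretches could be split either way. DHX8 stood at a log2 fold of 0.34 and DGKG at -0.46.

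The 3 genes past the rule were the 3 members under 1 FPKM in both libraries. In that range of level 11.2% of all examined genes were lower by the 2-fold rule, against 3.14% of genes at 1 FPKM or more in either library. On merged exon length, explained below, SPRY1 stood at 1.56 in control, so its place in this range depends on the length used. On log2(FPKM + 0.1), which shrinks differences of low genes, 1 member was past 2-fold, and on log2(FPKM + 1) it was 0.

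**Figure D2:**
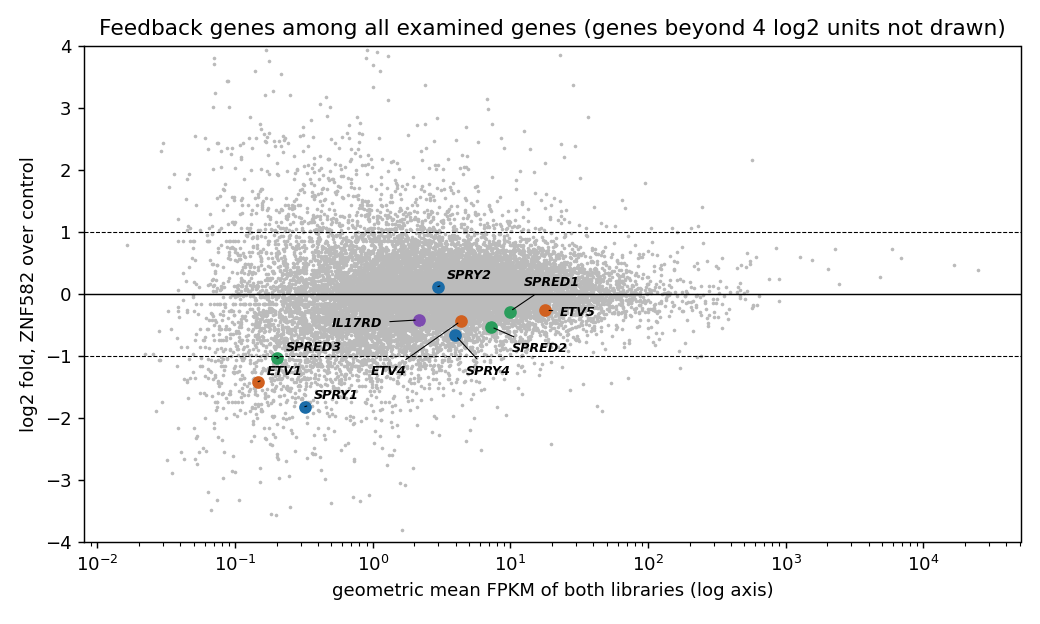
Log2 fold against the geometric mean FPKM of both libraries for all examined genes (grey) and the 10 feedback genes (coloured by family), each point 1 gene, with genes beyond 4 log2 units not drawn. SPRY1, ETV1 and SPRED3 lie below the lower 2-fold line at under 1 FPKM, and the 7 others lie between the dashed lines at higher levels.

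Levels between genes need a length, and the deposited FPKM uses an unusual one. The length implied by each FPKM was within 1% of the sum of all distinct annotated exons, overlapping ones counted repeatedly, in 86.7% of 12338 genes with over 50 control counts. It was within 1% of the merged exon length in 11%. For ETV1, with 56 distinct exons in 23 transcripts, the length behind the FPKM is 28 kb against 9.62 kb of merged exons. For SPRY1 it is 10.3 kb against 3.96 kb. FPKM thus understates these genes by 2.91 and 2.59 times relative to merged exons, and SPRED1, at 1.05 times, hardly at all. Ratios between libraries are not touched, since each gene has 1 length.

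On merged exons with TMM scaling (merged-exon RPKM, reads per kilobase, scaled to library size), ETV5 led at 27 in control and 22.5 with ZNF582. In control it was followed by SPRED2 at 13.2, SPRED1 at 11.4, ETV4 at 10.2, SPRY4 at 6.83, SPRY2 at 4.43, IL17RD at 3.58, SPRY1 at 1.56, ETV1 at 0.697 and SPRED3 at 0.388. Counting intervals of neighbours overlapped for SPRED1 and ETV4 and for SPRY2 and IL17RD. With ZNF582 the order was SPRED1 at 9.4, SPRED2 at 9.21, ETV4 at 7.51, SPRY2 at 4.82, SPRY4 at 4.31, IL17RD at 2.69, SPRY1 at 0.443, ETV1 at 0.262 and SPRED3 at 0.19. There the intervals of SPRED1 and SPRED2, of SPRY2 and SPRY4, of SPRY1 and ETV1 and of ETV1 and SPRED3 overlapped. Some neighbours change places with the length used. By deposited FPKM, SPRED3 stood above ETV1 in both libraries. In control SPRED1 stood above SPRED2 by FPKM, and with ZNF582 SPRY4 stood above SPRY2 by FPKM, at 3.03 and 2.97.

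**Figure D3:**
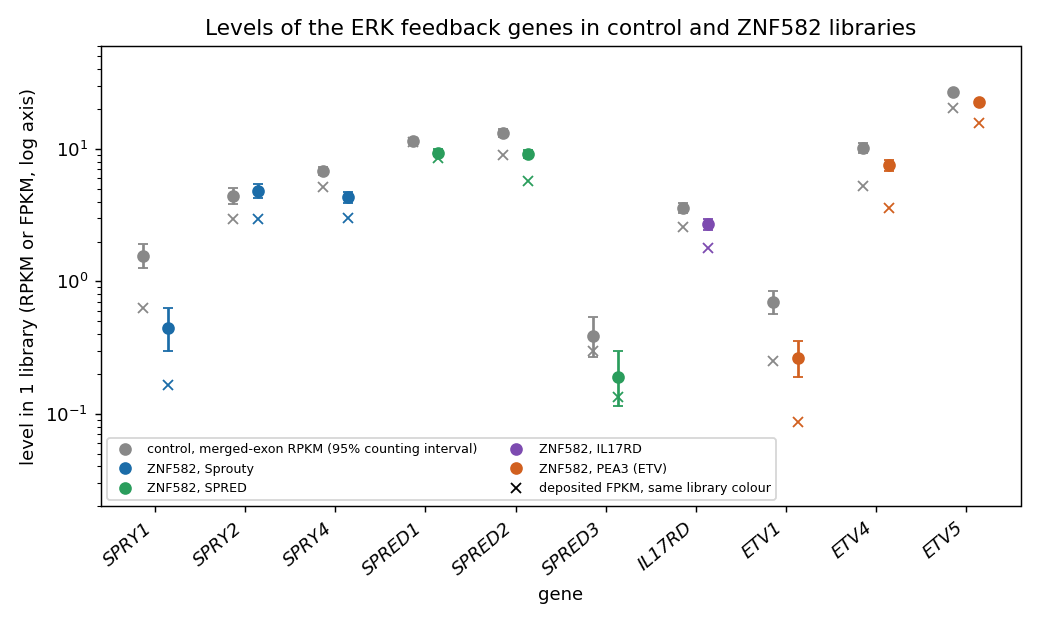
Level of each feedback gene in the control library (grey) and the ZNF582 library (coloured by family) on a log axis, as merged-exon RPKM with its 95% counting interval (points) and as deposited FPKM (crosses). SPRY1 goes from 1.56 to 0.443 merged-exon RPKM, and SPRY2 overlaps between libraries at 4.43 and 4.82.

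Most of the difference in the summed level of the 10 genes lay in the members abundant in control, which also held most of that level. Summed over the 10 genes, merged-exon RPKM was 79.3 in control and 61.4 with ZNF582, a difference of -17.9. The 3 genes past the rule gave -1.75 of it, or 9.76%, and held 2.64 of the 79.3 in control. The 5 genes most abundant in control, ETV5, SPRED2, SPRED1, SPRY4 and ETV4, gave 87.4%. In control these 5 stood at 27, 13.2, 11.4, 6.83 and 10.2 of the summed 79.3. Their part of the difference is thus near their part of the level, and nothing more is read from it. The largest single differences were -4.45 for ETV5 and -4.03 for SPRED2. With ZNF582 SPRY2 stood ahead of SPRY4 on merged exons, with overlapping counting intervals, and behind it by FPKM. SPRY2 differed by 0.385 in the other direction, and the interval of its fold holds no change. In raw counts the 10 genes together had 7129 in control and 6100 with ZNF582, which is 1.3-fold lower after scaling (1.25 to 1.34).

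Other genes in and around the ERK pathway, taken from 7 lists assembled by role, had a median near that of all genes. The lists do not cover the whole pathway, and some of their genes lie outside it. Of 82 listed genes 78 were examined. By the 2-fold rule 2 were lower, 2 higher and 74 neither, and the median log2 fold was -0.01, against -0.003 over all examined genes, of which 9.29% were past the rule in either direction. The lists of the cascade itself (20 genes), of other inhibitors (14), of Capicua and ETS repressors (8), of other ERK output (13) and of other ETS factors (14 examined) had medians of -0.04, -0.04, -0.10, 0.05 and 0.10. FGF receptors and partners stood at -0.23 (6 examined) and interleukin-17 receptors at 0.17 (3 examined).

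**Figure D4:**
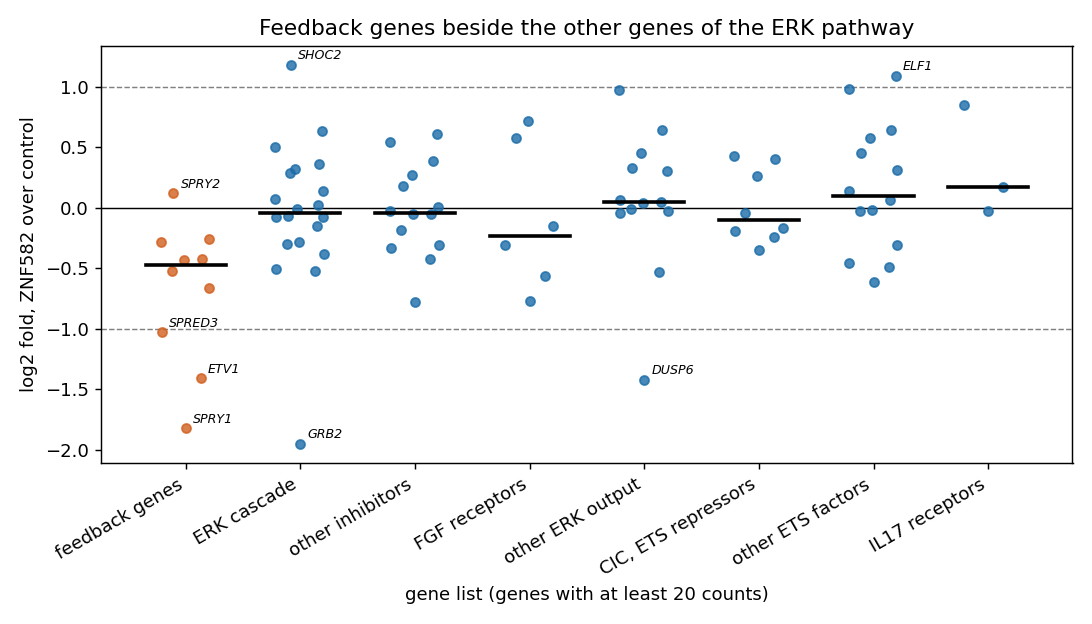
Log2 fold, ZNF582 over control, of the feedback genes (orange) and of the genes of 7 pathway lists (blue), each point 1 gene with at least 20 counts, with the median of each list as a bar and 2-fold as dashed lines. The feedback genes have a median of -0.48, and the medians of the other lists lie between -0.23 and 0.17. Single genes of those lists run from -1.95 to 1.18.

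GRB2, the adaptor that couples receptors to SOS, had 1946 counts in control and 560 with ZNF582 and was 3.86-fold lower (3.51 to 4.25). DUSP6, a phosphatase that inactivates ERK in the cytoplasm and is itself an ERK target, had 1222 and 508 counts and was 2.67-fold lower (2.41 to 2.97). SHOC2, a scaffold that aids activation of RAF, had 980 and 2466 counts and was 2.26-fold higher (2.1 to 2.44). ELF1, an ETS factor outside the PEA3 group, had 1244 and 2953 counts and was 2.14-fold higher (2 to 2.28). DUSP6 and ELF1 share exonic bases with other listed genes, and ELF1 was not past the rule without TMM factors. ETS2 stood just outside the rule at a log2 fold of 0.98.

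Other ERK output genes stood on both sides of 0. PHLDA1, a pleckstrin-domain gene used as an ERK readout, stood at a log2 fold of -0.53. DUSP4 and DUSP5, nuclear phosphatases of ERK, stood at 0.06 and -0.04, the cyclin gene CCND1 at 0.04 and FOSL1, an AP-1 subunit, at 0.33. EGR1, an immediate early factor, stood at 0.64 (0.56 to 0.73), and ERRFI1, a feedback inhibitor of EGFR, at 0.54 (0.47 to 0.60). The kinase gene MAP2K1 stood at -0.07, and CIC at -0.24 (-0.35 to -0.12).

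The remaining Sprouty gene, SPRY3, had 71 counts in control and 46 with ZNF582, at 0.533 and 0.287 FPKM, and a log2 fold of -0.78 (-1.35 to -0.22). By distance in log2 of FPKM plus 0.1 over the 2 libraries, SPRY3 (0.58), the ETS gene ETV7 (0.76) and the adaptor gene DOK1 (0.80) were the pathway genes nearest to SPRY1, among 82 compared.

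Gene ontology terms in the deposited table cover the members in part. The term for negative regulation of the MAPK cascade was attached to 5 members, SPRY1, SPRY2, SPRY4, SPRED1 and SPRED2, and to 0.525% of all listed genes. The term for positive regulation of the MAPK cascade was attached to 3, SPRY2, SPRED1 and IL17RD, and to 1.84% of listed genes. SPRED3 and the PEA3 genes carried neither.

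Of the markers of other cell types, some were lower with ZNF582 and some were not. Of 6 fibroblast markers 3 were listed, with a summed level of 2.22 FPKM in control and 1.29 with ZNF582. PDGFRB, with 96 and 49 counts, and LUM, with 36 and 10, were lower by the rule. Both were under 1 FPKM in both libraries, where 11.2% of all examined genes were lower by the rule. COL1A1, with 205 and 207 counts, was not past the rule, and COL1A2, COL3A1 and DCN were not listed. Of 5 leukocyte markers 2 were listed, at a sum of 0.718 and 0.979 FPKM, and of 4 endothelial markers 3, at 0.343 and 0.25 FPKM. Within the endothelial list VWF, at 5 and 16 counts, was higher by the rule, and CDH5, at 43 and 29 counts, stood at a log2 fold of -0.72. PTPRC, CD3E, MS4A1 and KDR were not listed. The part of these markers in the low counts of SPRY1, ETV1 and SPRED3 was not tested.

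Another library factor shifts every log2 fold by the same amount. Without TMM factors the median of all examined genes shifted by -0.12 and that of the members stood at -0.60, with 9 of 10 below 0 and SPRY2 at 0.00. Over all genes, 713 higher and 835 lower became 565 and 1097. In the authors' deposited table, SPRY1 stood at -1.93 and ETV1 at -1.53, and these were the 2 members called down there.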

How the data were processed

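The authors deposited 1 table with estimated counts and FPKM values per gene in each library, the authors' log2 fold change, p-values and q-values, per the file headers. HISAT2 2.0.4, StringTie 1.3.0 and the GRCh38 build are named in the submitters' processing notes. The counting program, the annotation and the basis of the deposited p-values are not stated, and no such p-value is printed. The counts were whole numbers in every record. 1 record broken over 2 lines was rejoined.

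Library totals times TMM factors (edgeR 4.0.16, R 4.3.3) scaled the counts. A gene whose counts summed to 20 or more was called at a fold of 2 or more with an exact 95% Clopper-Pearson counting interval, conditional on the sum of both counts, that excludes 1. Ratios between paralogues have exact conditional odds-ratio intervals, and levels exact Poisson intervals. Reads lack molecular identifiers, so intervals cover counting error only. Exon lengths and overlaps come from GENCODE 29 on GRCh38, and promoter windows from RefSeq (GRCh38.p14). The calling rule was run on simulated Poisson counts with planted folds and known library totals. That run covers neither the TMM factors nor spread between replicates. Named genes are ZNF582, the members, pathway genes past the rule with at least 100 counts, and the 3 nearest to the member with the largest difference. Other pathway genes and motifs were picked for their roles with values seen. Members and lists were chosen with earlier results of these data known. DESeq2 1.42.0 gave alternative size factors. Python 3.11.15 and scipy 1.17.1 were used.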

Additional observations from a re-analysis of the deposited data

How the results depend on the processing

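No paired analysis was possible because each group has 1 library, which also leaves no replicate to leave out. The 9 members below 0 were below 0 under each of the 4 other scalings in counts, and SPRY2 stood between 0.00 and 0.16. The count of 3 lower members became 1 from log2(FPKM + 0.1) and 0 from log2(FPKM + 1), where the added constant shrinks differences of low genes. It was 2 with at least 100 counts, which drops SPRED3, and 2 with DESeq2 size factors, where SPRED3 fell just short of 2-fold. At a fold threshold of 1.5 it was 4, with SPRY4 added. Among pathway genes the 2 higher became 1 without TMM factors, 1 from log2(FPKM + 0.1) and 0 from log2(FPKM + 1). These 2 higher became 8 at a fold threshold of 1.5, 3 with DESeq2 size factors and 1 without genes that share exonic bases. The 2 lower became 1 without genes that share exonic bases, 3 with no filter on low counts and 3 at a fold threshold of 1.5. Over all genes, 835 lower and 713 higher became 351 and 399 with at least 100 counts, 158 and 153 from log2(FPKM + 1), and 1806 and 1673 at 1.5-fold. They became 559 and 434 without genes that share exonic bases, which leaves out 39.5% of examined genes. The 2-fold rule without its interval, chosen after seeing the data, left the count of lower members at 3. At 54 counts for SPRED3, depth limits what its fold can show.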
